A study of Mus musculus with 6 samples.

Results

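NPMc+ is a mutant nucleophosmin that carries a new nuclear export signal and accumulates in the cytoplasm, and Flt3-ITD is an internal tandem duplication that makes the receptor tyrosine kinase FLT3 signal without its ligand. The 2 lesions often occur together in acute myeloid leukaemia. The comparison described here asks what was different in long-term haematopoietic stem cells (LT-HSC) that carried both lesions, relative to LT-HSC that carried the duplication alone. LT-HSC are the few marrow cells from which blood is renewed for life, and in healthy marrow most of them rest outside the cell cycle.

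The tested cells were NPMc_Flt3ITD (genotype NPMc+/FLt3-ITD, 2 libraries) and they were set against Flt3ITD (genotype Flt3-ITD, 2 libraries). The Mx libraries (genotype MxCRE, 2 libraries), which the series names as its control, share the estimate of the spread, and their values stand beside the others. All mice were C57BL/6 of 8 to 11 weeks, and LT-HSC were sorted from crushed limb and sternum marrow and sequenced as polyadenylated RNA by a SMART-seq protocol. The labels name no Cre transgene for the mutant groups, do not say how or in which cells NPMc+ was switched on, and give no sort markers. Cells with NPMc+ and without Flt3-ITD were not analysed here. Genes entered the comparison when at least 1 CPM (counts scaled to library size) was reached in at least 2 of the 4 NPMc_Flt3ITD and Flt3ITD libraries. This kept 12194 of the 17997 genes in the deposited table and left out 5803.

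Recovered reads were 27599145 and 37038893 in NPMc_Flt3ITD, against 15618802 and 33346210 in Flt3ITD, so Flt3ITD replicate 1 was the shallowest library and 1 read there was worth 0.0657 CPM, against 0.0289 to 0.0374 CPM in NPMc_Flt3ITD. Rn45s, the ribosomal RNA precursor, took 22.8% and 21.7% of these reads in NPMc_Flt3ITD, against 21.3% and 18.7% in Flt3ITD. Replicates are biological per the series text. Values below are the authors' normalised CPM in replicates 1 and 2 of each group. Fold changes are NPMc_Flt3ITD minus Flt3ITD on the log2(CPM + 1) scale. That scale makes the change of low genes smaller than on the CPM scale. The standard error (SE) is limma's, and a gene was called when its Benjamini-Hochberg adjusted p was under 0.05. CPM is not corrected for gene length, so levels are compared between libraries and not between genes. Fewer cells of a type and less RNA per cell cannot be told apart in such bulk libraries.

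The sorted cells carried transcripts of genes that define LT-HSC. Kit, the stem cell factor receptor, was at 798 and 567 CPM in NPMc_Flt3ITD, against 487 and 563 CPM in Flt3ITD, with 689 and 716 CPM in Mx. Procr, a surface receptor by which LT-HSC are often purified, was at 27.4 and 42.5 CPM in NPMc_Flt3ITD, against 21.5 and 25.4 CPM in Flt3ITD, with 87.5 and 85.8 CPM in Mx. Procr was lower in all 4 mutant libraries than in Mx. Hlf, a transcription factor gene of stem cells, was at 114 and 164 CPM in NPMc_Flt3ITD, against 65.1 and 113 CPM in Flt3ITD, with 249.5 and 256 CPM in Mx. Cd48, a surface marker that healthy LT-HSC lack, was at 290 and 419 CPM in NPMc_Flt3ITD, against 290.3 and 215 CPM in Flt3ITD, with 39.9 and 60.9 CPM in Mx, so all 4 mutant libraries lay above both Mx libraries. It did not pass between the mutant genotypes (log2 fold change 0.48, adjusted p = 0.366). Fgd5, a gene used to mark LT-HSC, was at 1.91 and 8.78 CPM in NPMc_Flt3ITD, against 8.01 and 9.19 CPM in Flt3ITD, with 19.9 and 21.6 CPM in Mx. Hoxb5, another such gene, was at 2.62 and 2.2 CPM in NPMc_Flt3ITD, against 2.82 and 4.66 CPM in Flt3ITD, with 7.57 and 8.25 CPM in Mx. Both were lower in all 4 mutant libraries than in Mx.

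Relative to Flt3ITD, NPMc_Flt3ITD LT-HSC held far fewer transcripts of early erythroid genes and fewer of cell cycle genes, and more of the cell cycle inhibitor gene Cdkn1a, of Hoxa10 and Nkx2-3, and of single genes otherwise known from lymphoid and mast cells. Of the 12194 tested genes 182 were called, 46 higher and 136 lower in NPMc_Flt3ITD, which are 0.377% and 1.12% of the genes tested (1.49% in all). Of the called genes 15, 1 higher and 14 lower, reached the filter through the group in which they were high alone and so had to differ. The 4 libraries of every called gene did not overlap between the groups. Both NPMc_Flt3ITD libraries lay above both Flt3ITD libraries in 24.6% of all tested genes and below them in 24.1%. The falls reached further than the rises. The called rises had a median log2 fold change of 1.55 and 8 of them were past 2, while the called falls had a median of -1.63, with 56 past -2 and 17 past -4. Over all tested genes the median was 0.03 and the quartiles were -0.30 and 0.34. The share called was 0.380% among genes under 5 CPM and 2.76% among genes over 100 CPM, where the median SE was 0.452 and 0.187.

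**Figure D1:**
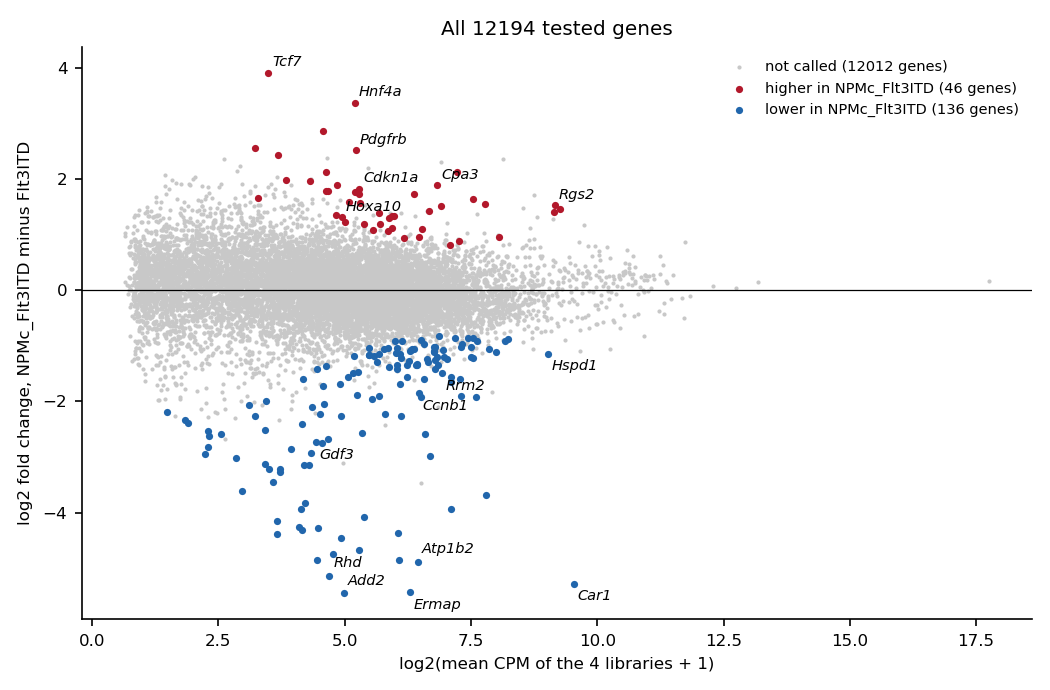
Each point is a tested gene, placed by log2(mean CPM of the 4 libraries + 1) on the horizontal axis and by its log2 fold change, NPMc_Flt3ITD minus Flt3ITD, on the vertical axis. The 46 genes called higher (red) reach 3.91 and the 136 called lower (blue) reach -5.45, with erythroid genes such as Ermap, Rhd and Add2 at the bottom.

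Of the 182 genes 12 were called in each of the 6 fits that left out 1 library. These 12 were Pdgfrb, which rose, and Ermap, Atp1b2, Tspo2, Slc40a1, Slc38a5, Slc25a21, Mt1, Mt2, Hprt, Mthfd1 and Gdf3, which fell. Every other called gene named below lost its call, or no longer reached the 1 CPM filter, in at least 1 of these fits. Some, such as Bcl2, Cdc6, Cd69, Cyc1, Hoxa10, Msi2 and Hspd1, lost it in all 6, and this is not repeated for each such gene below. The number still called was 57 and 28 without NPMc_Flt3ITD replicate 1 and 2, 17 and 63 without Flt3ITD replicate 1 and 2, and 102 without Mx replicate 1 or without Mx replicate 2.

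Neither of the genes that the genotypes name passed. Flt3 was at 64.3 and 93.6 CPM in NPMc_Flt3ITD, against 32.5 and 39.8 CPM in Flt3ITD, with 43.6 and 38.3 CPM in Mx (log2 fold change 1.09, SE 0.23, adjusted p = 0.065). Both NPMc_Flt3ITD libraries lay above the other 4 libraries. Npm1 was at 1380.2 and 1692 CPM in NPMc_Flt3ITD, against 1793 and 2336 CPM in Flt3ITD, with 1239 and 1594 CPM in Mx (log2 fold change -0.42, SE 0.27, adjusted p = 0.434). A level per gene does not tell the mutant allele from the normal one, so neither value checks a genotype.

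Erythroid genes led the falls. Red cell precursors arise from stem cells through progenitors in which the transcription factors GATA1 and KLF1 switch on blood group, membrane skeleton, haem and iron genes. Of 36 tested genes of erythroid progenitors 20 fell and 0 rose in NPMc_Flt3ITD, against 1.12% lower over all tested genes, with a median log2 fold change of -2.76 against 0.03 over all genes. Of the 36 genes 5 (Rhd, Add2, Ank1, Cldn13 and Tmem56) reached the filter through Flt3ITD alone, so their falls lend no support to the count, and of the other 31 genes 15 fell. The members of the list were chosen with earlier results of these data known. The count and the median therefore describe the list and do not test it. The summed level of the 36 genes was 2459 and 1581 CPM in NPMc_Flt3ITD, against 6443 and 6116 CPM in Flt3ITD, with 2369 and 2163 CPM in Mx. The number that fell was 22 and 13 without NPMc_Flt3ITD replicate 1 and 2, 4 and 10 without Flt3ITD replicate 1 and 2 (31 genes then reaching the filter), and 19 without Mx replicate 1 or without Mx replicate 2.

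Blood group and membrane genes led these falls. Ermap, an erythroid membrane protein gene, was at 3.63 and 1.68 CPM in NPMc_Flt3ITD, against 138 and 165 CPM in Flt3ITD, with 12.1 and 16.5 CPM in Mx (log2 fold change -5.43, SE 0.33, adjusted p = 0.00095). Rhd, which encodes a Rhesus blood group antigen, was at 0.486 and 0.347 CPM in NPMc_Flt3ITD, against 41 and 57.7 CPM in Flt3ITD, with 4.27 and 4.05 CPM in Mx (log2 fold change -5.13, SE 0.35, adjusted p = 0.00095). Add2, an adducin of the membrane skeleton, was at 0.823 and 0.0867 CPM in NPMc_Flt3ITD, against 55.9 and 65.4 CPM in Flt3ITD, with 4.69 and 7.4 CPM in Mx (log2 fold change -5.45, SE 0.39, adjusted p = 0.00095). In all 3 genes both NPMc_Flt3ITD libraries lay below both libraries of each other group. Rhd and Add2 reached the filter through Flt3ITD alone, being under 1 CPM in both NPMc_Flt3ITD libraries, and so had to lie lower in NPMc_Flt3ITD. Rhag, the partner of Rhesus proteins, was at 6.43 and 1.82 CPM in NPMc_Flt3ITD, against 77.9 and 75.6 CPM in Flt3ITD, with 12.1 and 8.06 CPM in Mx (log2 fold change -4.09). The ankyrin gene Ank1, another part of the membrane skeleton, was at 0.262 and 0.0578 CPM in NPMc_Flt3ITD, against 9.98 and 17 CPM in Flt3ITD, with 0.937 and 1.23 CPM in Mx (log2 fold change -3.60). Kel, the Kell blood group gene, fell by 2.93 on the log2 scale. The libraries of these 3 genes did not overlap between the mutant groups. Tmem56 was at 1 CPM or less in both NPMc_Flt3ITD libraries, with 0.337 and 0 CPM in NPMc_Flt3ITD, against 26.3 and 20.3 CPM in Flt3ITD, with 0.712 and 4 CPM in Mx.

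The promoters of the 3 listed erythroid genes with the smallest p are shown because they hold letters that erythroid transcription factors are known to read. The sequences are from RefSeq (GRCm38.p6), cover the 250 bases before the gene start, and read 5′ to 3′ on the strand of the gene. Capitals mark the letters bound by GATA factors, which are GATAA or GATAG with A or T before them, and CACCC, the letters bound by KLF factors, each on either strand. Ermap is at chr4:119189996-119190245 on the minus strand, Rhd at chr4:134864286-134864535 on the plus strand, and Add2 at chr6:86028431-86028680 on the plus strand.
Ermap: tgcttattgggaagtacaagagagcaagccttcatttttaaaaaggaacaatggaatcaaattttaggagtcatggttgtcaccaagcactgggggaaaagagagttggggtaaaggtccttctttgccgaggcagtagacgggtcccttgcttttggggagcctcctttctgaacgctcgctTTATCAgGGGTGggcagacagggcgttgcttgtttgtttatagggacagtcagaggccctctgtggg
Rhd: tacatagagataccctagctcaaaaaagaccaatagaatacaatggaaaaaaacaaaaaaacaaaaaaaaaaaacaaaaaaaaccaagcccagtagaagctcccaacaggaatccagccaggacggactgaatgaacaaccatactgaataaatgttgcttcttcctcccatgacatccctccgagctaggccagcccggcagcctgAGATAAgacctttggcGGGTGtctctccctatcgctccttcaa
Add2: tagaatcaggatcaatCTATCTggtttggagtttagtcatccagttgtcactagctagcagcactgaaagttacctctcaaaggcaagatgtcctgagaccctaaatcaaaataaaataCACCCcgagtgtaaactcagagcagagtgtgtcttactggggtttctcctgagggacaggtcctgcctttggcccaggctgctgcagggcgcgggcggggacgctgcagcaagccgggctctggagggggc
Each of these held 1 match to the GATA letters and 1 match to CACCC. In RefSeq 24 of the 36 erythroid genes had a promoter, with 32 promoters in all. The GATA letters were found in 43.8% of these 32, against 17.4% of the 11593 promoters of tested genes and 26.5% of all 32851 promoters. CACCC was found in 78.1% of the 32, against 57.1% and 52.0%. The promoter of Mt2, another of the 12 largest falls, held CACCC but none of the GATA letters. A match describes letters in this window and is not evidence that a factor was bound.

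Enzymes, transporters and metal-binding genes of erythroid precursors fell as well. Car1, a carbonic anhydrase of early red cell precursors, was at 76.9 and 16.5 CPM in NPMc_Flt3ITD, against 1418 and 1446 CPM in Flt3ITD, with 151 and 123 CPM in Mx (log2 fold change -5.28, SE 0.54, adjusted p = 0.00431). Cldn13, a claudin, was at 0.449 and 0.462 CPM in NPMc_Flt3ITD, against 36.6 and 46.7 CPM in Flt3ITD, with 1.39 and 2.73 CPM in Mx (log2 fold change -4.86, SE 0.38, adjusted p = 0.00165). Tspo2, which encodes a translocator protein of red cell precursors, was at 1.01 and 0.867 CPM in NPMc_Flt3ITD, against 57.3 and 45.8 CPM in Flt3ITD, with 4.57 and 5.7 CPM in Mx (log2 fold change -4.75, SE 0.33, adjusted p = 0.00095), and it is not on the list. Mt2 and Mt1 encode metallothioneins, which bind zinc and copper. Mt2 was at 2.69 and 3.44 CPM in NPMc_Flt3ITD, against 72.3 and 186 CPM in Flt3ITD, with 5.29 and 8.48 CPM in Mx (log2 fold change -4.85, SE 0.45, adjusted p = 0.00324), and Mt1 fell by 2.98 on the log2 scale. The sequences of these 2 genes are alike, so reads may be shared between them. Slc40a1, the iron exporter ferroportin, was at 1.38 and 1.53 CPM in NPMc_Flt3ITD, against 34 and 33.7 CPM in Flt3ITD, with 7.87 and 6.64 CPM in Mx (log2 fold change -3.83, adjusted p = 0.00175). Tfrc, the transferrin receptor that takes up iron, was at 65.9 and 89.4 CPM in NPMc_Flt3ITD, against 185 and 180 CPM in Flt3ITD, with 62.1 and 54.9 CPM in Mx (log2 fold change -1.24, adjusted p = 0.0234). Of the haem synthesis enzymes Cpox fell by 2.57 and Alad by 1.20 on the log2 scale, while Fech (-0.65, adjusted p = 0.124) and Urod (-0.45, adjusted p = 0.179) did not pass.

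Large falls also lay in transport and signalling genes. Of these Sphk1, Aqp1 and Trib2 are on the erythroid list and are already in its count. Sphk1, which makes sphingosine 1-phosphate, was at 2.88 and 0.751 CPM in NPMc_Flt3ITD, against 65.1 and 48.7 CPM in Flt3ITD, with 6.56 and 3.91 CPM in Mx (log2 fold change -4.46, SE 0.45, adjusted p = 0.00427). Aqp1, a water channel of red cells, was at 74.8 and 11.3 CPM in NPMc_Flt3ITD, against 494 and 310.3 CPM in Flt3ITD, with 144 and 108 CPM in Mx (log2 fold change -3.69, adjusted p = 0.0431). Atp1b2, a sodium pump subunit, was at 8 and 2.6 CPM in NPMc_Flt3ITD, against 169 and 165 CPM in Flt3ITD, with 16 and 13 CPM in Mx (log2 fold change -4.88, SE 0.40, adjusted p = 0.00175). Atp1b2 was one of the 12 largest falls and is not on the erythroid list. Pklr, the pyruvate kinase of red cells and liver, was at 1.72 and 0.0578 CPM in NPMc_Flt3ITD, against 31.1 and 34.4 CPM in Flt3ITD, with 4.31 and 4.29 CPM in Mx (log2 fold change -4.31). Trib2, a pseudokinase gene, was at 4.83 and 0.404 CPM in NPMc_Flt3ITD, against 89.3 and 58.1 CPM in Flt3ITD, with 12.6 and 13.1 CPM in Mx (log2 fold change -4.67, SE 0.58, adjusted p = 0.00861). In these 5 genes NPMc_Flt3ITD replicate 2 was the lower of the 2. The predicted gene Gm15915 fell by 4.36 on the log2 scale.

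The transcription factors and receptor of the erythroid programme varied more between replicates and did not pass. Klf1 was at 29.8 and 5.03 CPM in NPMc_Flt3ITD, against 223 and 101 CPM in Flt3ITD, with 28.6 and 11.4 CPM in Mx (log2 fold change -3.47, SE 0.72, adjusted p = 0.0608). Gata1 was at 115 and 36.4 CPM in NPMc_Flt3ITD, against 185 and 137 CPM in Flt3ITD, with 57 and 36.8 CPM in Mx (log2 fold change -1.28, SE 0.46, adjusted p = 0.174). Epor, the erythropoietin receptor gene, was at 13.9 and 1.59 CPM in NPMc_Flt3ITD, against 61.5 and 44.5 CPM in Flt3ITD, with 18.7 and 12 CPM in Mx (log2 fold change -3.10, SE 0.68, adjusted p = 0.07). In all 3 the mutant groups did not overlap with each other, Mx overlapped with NPMc_Flt3ITD, and replicate 1 was above replicate 2 in every group. Gata2, the GATA factor of stem and progenitor cells, was at 289 and 194 CPM in NPMc_Flt3ITD, against 365 and 146 CPM in Flt3ITD, with 186 and 167 CPM in Mx (log2 fold change 0.04, adjusted p = 0.97), and its groups overlapped. Nfe2, a partner of small MAF proteins in erythroid cells, lay the other way, at 388 and 318 CPM in NPMc_Flt3ITD, against 228 and 227 CPM in Flt3ITD, with 219 and 213 CPM in Mx, and was not called (log2 fold change 0.62, adjusted p = 0.0992). Genes of late red cell precursors were low in every library. Alas2 was at 0.112 and 0.722 CPM in NPMc_Flt3ITD, against 0.788 and 3.49 CPM in Flt3ITD, with 0.937 and 1.41 CPM in Mx, and Slc4a1, the anion exchanger of red cells, was at 0 and 0 CPM in NPMc_Flt3ITD, against 0 and 0.697 CPM in Flt3ITD, with 0.6 and 0 CPM in Mx.

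**Figure D2:**
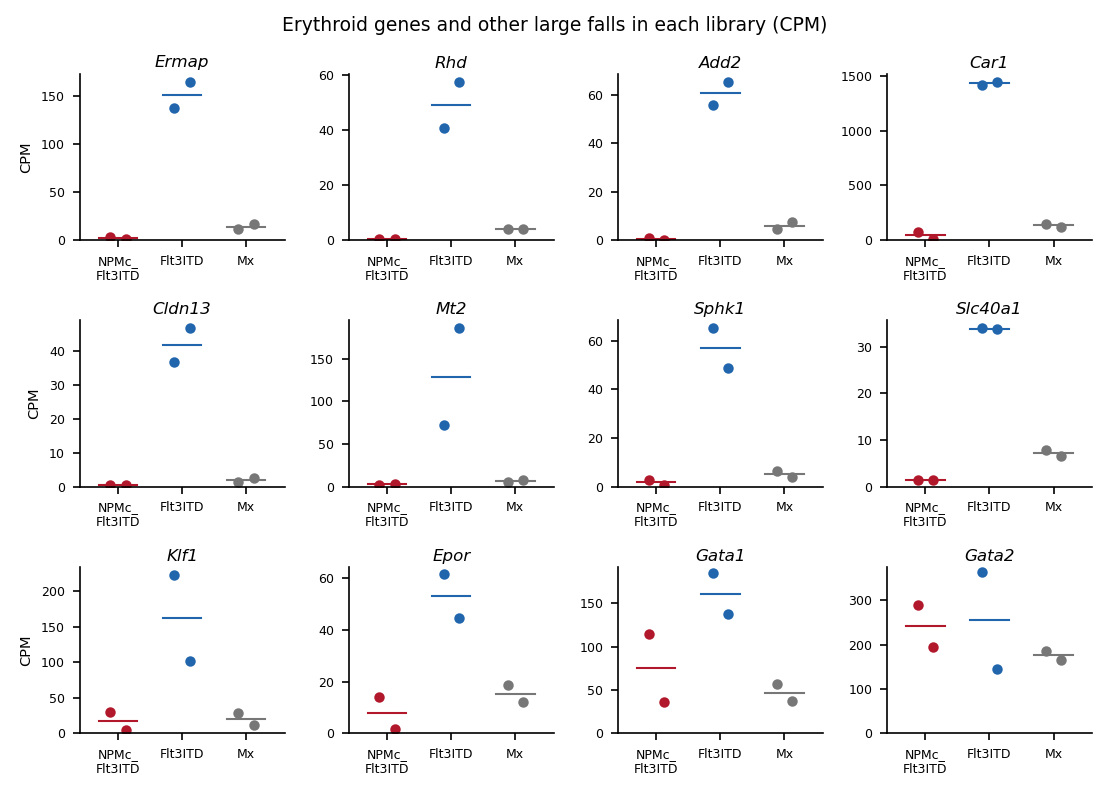
Normalised CPM (vertical axes, each from 0 and each with its own scale) of 12 genes in the 2 libraries of NPMc_Flt3ITD (red), Flt3ITD (blue) and Mx (grey), with a horizontal line at each mean. All but Gata2 are on the erythroid progenitor list. For Ermap, Rhd, Add2 and Cldn13 both NPMc_Flt3ITD points lie below 5 CPM while the Flt3ITD points lie between 36.6 and 165 CPM. The points of Gata2 overlap between groups.

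Cell cycle genes were lower in NPMc_Flt3ITD. Of 37 tested genes of G2 and mitosis 9 fell and 0 rose, against 1.12% lower over all tested genes. Their median log2 fold change was -1.02. In 36 of them both NPMc_Flt3ITD libraries lay below both Flt3ITD libraries, against 24.1% of all tested genes. Of 40 tested genes of G1/S and S phase 6 fell and 0 rose, against the same 1.12%, with a median of -0.69. All 40 had a fold change below 0. The summed level of the G2 and mitosis genes was 1467 and 1499 CPM in NPMc_Flt3ITD, against 3248 and 2708 CPM in Flt3ITD, with 1537 and 1769 CPM in Mx. For G1/S and S phase it was 3717 and 3757 CPM in NPMc_Flt3ITD, against 6233 and 5473 CPM in Flt3ITD, with 4038 and 3783 CPM in Mx. The counts rest on few libraries: without Flt3ITD replicate 1 no gene of either list was called, without NPMc_Flt3ITD replicate 1 and 2 the falls were 2 and 1 in G2 and mitosis and 1 and 0 in G1/S and S phase, and without Flt3ITD replicate 2 they were 7 and 1. The medians in these fits lay between -0.89 and -1.09 for G2 and mitosis and between -0.67 and -0.76 for G1/S and S phase. Their sign could not change. Both NPMc_Flt3ITD libraries lay below both Flt3ITD libraries in 36 of the 37 and 38 of the 40 genes.

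Among mitotic genes Ccnb1, which encodes the cyclin B1 that starts mitosis, was at 40.5 and 34.4 CPM in NPMc_Flt3ITD, against 149 and 126 CPM in Flt3ITD, with 60.1 and 68.7 CPM in Mx (log2 fold change -1.85, SE 0.19, adjusted p = 0.00427). Ube2c, a ubiquitin-conjugating enzyme that ends mitosis, was at 38.9 and 35.6 CPM in NPMc_Flt3ITD, against 109.8 and 115 CPM in Flt3ITD, with 38.7 and 49.9 CPM in Mx (log2 fold change -1.57, SE 0.20, adjusted p = 0.00861). In both genes the libraries of a group lay close together. Cenpa, the histone of centromeres, was at 40.6 and 48.7 CPM in NPMc_Flt3ITD, against 103 and 114 CPM in Flt3ITD, with 52.5 and 56.2 CPM in Mx (log2 fold change -1.27, adjusted p = 0.0162). Birc5, or survivin, was at 45 and 51.8 CPM in NPMc_Flt3ITD, against 119.8 and 124 CPM in Flt3ITD, with 40.4 and 55.7 CPM in Mx (log2 fold change -1.32, adjusted p = 0.0234). In these 4 genes the Flt3ITD libraries were the 2 highest of the 6. Ccna2, Cdc20, Aurkb, Kif2c and Cdca8 also fell, by 1.24, 1.09, 1.35, 1.73 and 1.35 on the log2 scale. Mki67, widely used to mark proliferating cells, was at 101 and 129.8 CPM in NPMc_Flt3ITD, against 205 and 189 CPM in Flt3ITD, with 127 and 117 CPM in Mx and was not called (log2 fold change -0.78, SE 0.18, adjusted p = 0.0743). Pttg1, which encodes securin, was the 1 gene of the list above 0 (0.20, adjusted p = 0.753).

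The promoters of the 3 mitotic genes with the smallest p are shown for the letters that the DREAM complex and NF-Y, 2 known regulators of mitotic genes, are known to read. They are from RefSeq (GRCm38.p6), 250 bases before the gene start, 5′ to 3′ on the strand of the gene. Capitals mark the cell cycle genes homology region (CHR), searched as TTTGAA along with the variant TTCGAA and the variant TTTAAA, and CCAAT, the letters bound by NF-Y, each on either strand. Ccnb1 is at chr13:100786487-100786736 on the minus strand, Ube2c at chr2:164769679-164769928 on the plus strand, and Cenpa at chr5:30666636-30666885 on the plus strand.
Ccnb1: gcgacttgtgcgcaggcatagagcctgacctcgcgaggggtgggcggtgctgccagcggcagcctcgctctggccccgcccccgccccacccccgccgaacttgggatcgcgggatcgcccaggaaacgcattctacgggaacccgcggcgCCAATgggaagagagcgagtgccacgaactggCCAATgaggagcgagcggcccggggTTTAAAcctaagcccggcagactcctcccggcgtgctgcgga
Ube2c: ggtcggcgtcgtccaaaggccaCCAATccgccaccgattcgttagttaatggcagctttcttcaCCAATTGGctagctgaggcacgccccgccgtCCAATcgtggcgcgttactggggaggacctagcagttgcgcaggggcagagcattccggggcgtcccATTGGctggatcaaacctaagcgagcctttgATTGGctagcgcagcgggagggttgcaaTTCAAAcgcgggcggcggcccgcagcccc
Cenpa: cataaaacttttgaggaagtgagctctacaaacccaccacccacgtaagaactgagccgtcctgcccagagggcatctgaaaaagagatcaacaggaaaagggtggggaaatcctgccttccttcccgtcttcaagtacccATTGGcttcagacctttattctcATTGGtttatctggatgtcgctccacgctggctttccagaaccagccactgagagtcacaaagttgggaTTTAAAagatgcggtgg
The 3 promoters held 1 CHR match each, and 2, 6 and 2 matches to CCAAT, some of which overlap on opposite strands in Ube2c. RefSeq gave 32 promoters for 31 of the 37 genes of G2 and mitosis. CHR letters were found in 53.1% of these, against 19.3% of the promoters of tested genes and 26.2% of all promoters. CCAAT was found in 78.1%, against 35.5% and 33.9%. The promoter of Birc5 held the CHR letters but not CCAAT.

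Among S phase genes Rrm2, a subunit of the ribonucleotide reductase that makes DNA precursors, was at 58.8 and 66.6 CPM in NPMc_Flt3ITD, against 179 and 177 CPM in Flt3ITD, with 74.5 and 94.2 CPM in Mx (log2 fold change -1.49, SE 0.18, adjusted p = 0.008). Ccne1, which encodes the cyclin E1 of the G1/S transition, was at 6.92 and 12 CPM in NPMc_Flt3ITD, against 36.2 and 62.1 CPM in Flt3ITD, with 16.2 and 12 CPM in Mx (log2 fold change -2.25, SE 0.37, adjusted p = 0.0264). In Rrm2 and Ccne1 the Mx libraries lay nearer to NPMc_Flt3ITD than to Flt3ITD. Fen1, a nuclease of lagging strand synthesis, was at 75.9 and 74.5 CPM in NPMc_Flt3ITD, against 177 and 171 CPM in Flt3ITD, with 97.9 and 74.6 CPM in Mx (log2 fold change -1.20, adjusted p = 0.0206). Cdc6, which loads the replicative helicase, was at 42 and 37.4 CPM in NPMc_Flt3ITD, against 94.2 and 82.2 CPM in Flt3ITD, with 36 and 30.01 CPM in Mx (log2 fold change -1.13, adjusted p = 0.0375). Rrm1 and Chaf1a fell by 0.91 and 1.04 on the log2 scale. The helicase genes Mcm2, Mcm3, Mcm4, Mcm5, Mcm6 and Mcm7 had fold changes between -0.66 and -0.41 and none passed.

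Of the genes that inhibit the cycle Cdkn1a was called. Cdkn1a, which encodes p21, an inhibitor of cyclin-dependent kinases, was at 53.7 and 66.1 CPM in NPMc_Flt3ITD, against 18.1 and 14.4 CPM in Flt3ITD, with 45.5 and 50.5 CPM in Mx (log2 fold change 1.82, SE 0.22, adjusted p = 0.00845). The NPMc_Flt3ITD libraries were the 2 highest and the Flt3ITD libraries the 2 lowest of the 6, and the call was lost without NPMc_Flt3ITD replicate 2 (adjusted p = 0.0839) or Flt3ITD replicate 1 (adjusted p = 0.0516). Cdkn1b, which encodes p27, was at 60.0 and 53.1 CPM in NPMc_Flt3ITD, against 43.7 and 37.5 CPM in Flt3ITD, with 33.7 and 31.3 CPM in Mx and was not called (log2 fold change 0.47, adjusted p = 0.245). Cdkn1c, which encodes p57, was at 1.42 and 5.2 CPM in NPMc_Flt3ITD, against 0.591 and 3.42 CPM in Flt3ITD, with 3.22 and 6.27 CPM in Mx (log2 fold change 0.55, adjusted p = 0.686). Neither of the last 2 genes passed the test. Cdk6, a kinase of G1, was at 135 and 126 CPM in NPMc_Flt3ITD, against 110 and 116 CPM in Flt3ITD, with 64 and 92.3 CPM in Mx (log2 fold change 0.21, adjusted p = 0.619). Ccnd1, which encodes cyclin D1, was at 6.36 and 7.17 CPM in NPMc_Flt3ITD, against 13.7 and 10.6 CPM in Flt3ITD, with 57.1 and 42.5 CPM in Mx (log2 fold change -0.75, adjusted p = 0.205). Of 21 tested genes of this group Cdkn1a was the 1 that rose and 0 fell, against 0.377% higher over all tested genes. Myc was at 401 and 335 CPM in NPMc_Flt3ITD, against 657 and 432 CPM in Flt3ITD, with 381 and 188 CPM in Mx (log2 fold change -0.54, adjusted p = 0.415).

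The series title names stem cell dormancy. Of 38 tested genes known from quiescent and dormant stem cells (42 in the list) 1 rose, Cdkn1a, and 0 fell, against 0.377% higher over all tested genes. The median log2 fold change was 0.58 and 35 of the 38 had a value above 0. The summed level was 7484 and 5413 CPM in NPMc_Flt3ITD, against 3493 and 3767 CPM in Flt3ITD, with 6926 and 5644 CPM in Mx. The list holds Nr4a1, Egr1 and Btg2, immediate early genes that respond within minutes to a stimulus and were higher in replicate 1 of each group. Nr4a1 was at 727 and 215 CPM in NPMc_Flt3ITD, against 130.3 and 44.5 CPM in Flt3ITD, with 1012 and 451 CPM in Mx (log2 fold change 2.36, adjusted p = 0.104). Over the list of 25 immediate early and stress genes 0 were called. The summed level was 18292 and 9228 CPM in NPMc_Flt3ITD, against 9879 and 5550 CPM in Flt3ITD, with 16377 and 7063 CPM in Mx. The part of these genes in the dormancy list was not tested.

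Other dormancy genes lay higher in both NPMc_Flt3ITD libraries and did not pass. Tsc22d1 was at 750.2 and 535 CPM in NPMc_Flt3ITD, against 303 and 212 CPM in Flt3ITD, with 763 and 428 CPM in Mx (log2 fold change 1.32, adjusted p = 0.0753). Socs3, a cytokine signalling suppressor gene, was at 49.4 and 62.5 CPM in NPMc_Flt3ITD, against 27 and 23.3 CPM in Flt3ITD, with 119.6 and 71.7 CPM in Mx (log2 fold change 1.12, adjusted p = 0.0765). The TGF-beta ligand gene Tgfb1 was at 12.5 and 17.9 CPM in NPMc_Flt3ITD, against 8.14 and 15.7 CPM in Flt3ITD, with 8.47 and 13.6 CPM in Mx and its groups overlapped. Of 31 tested TGF-beta and BMP pathway genes 0 were called. The smallest adjusted p among them was that of Skil, a feedback inhibitor of the pathway, at 53.9 and 38.9 CPM in NPMc_Flt3ITD, against 20.4 and 24.4 CPM in Flt3ITD, with 101 and 83.8 CPM in Mx (log2 fold change 1.01, adjusted p = 0.0743).

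Among genes that mark LT-HSC identity a single one was called. Of 36 tested genes 1 rose, Msi2, and 0 fell, against 0.377% higher over all tested genes, with a median log2 fold change of 0.21. Msi2, an RNA-binding protein of stem cell self-renewal, was at 359 and 335 CPM in NPMc_Flt3ITD, against 157 and 202 CPM in Flt3ITD, with 303 and 285 CPM in Mx (log2 fold change 0.96, SE 0.18, adjusted p = 0.0445), and its call was lost in each of the 6 fits without 1 library. Mecom, which encodes the transcription factor EVI1, was at 53 and 53.8 CPM in NPMc_Flt3ITD, against 19.8 and 33.4 CPM in Flt3ITD, with 102 and 110.1 CPM in Mx and was not called (log2 fold change 1.03, SE 0.25, adjusted p = 0.0781). Both NPMc_Flt3ITD libraries lay between the Flt3ITD and the Mx libraries. Slamf1, which encodes the surface marker CD150, was at 62.3 and 26.5 CPM in NPMc_Flt3ITD, against 48.6 and 31.4 CPM in Flt3ITD, with 72.7 and 58.9 CPM in Mx with no separation of the groups (log2 fold change 0.06). Mycn, of the MYC family, was at 179 and 165 CPM in NPMc_Flt3ITD, against 99.6 and 92.3 CPM in Flt3ITD, with 152 and 88.6 CPM in Mx (adjusted p = 0.116).

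Hoxa genes encode homeobox transcription factors of stem and progenitor cells, and their high level is a mark of human NPM1-mutant leukaemia. The table lists 10 Hoxa genes, of which 5 reached the filter. Of these 1 rose, Hoxa10, against 0.377% of all tested genes, and all 5 had both NPMc_Flt3ITD libraries above both Flt3ITD libraries, against 24.6% of all tested genes. Hoxa10 was at 34.6 and 51.3 CPM in NPMc_Flt3ITD, against 17.1 and 15.7 CPM in Flt3ITD, with 38.3 and 39.7 CPM in Mx (log2 fold change 1.31, SE 0.25, adjusted p = 0.0481), and its call was lost in each of the 6 fits without 1 library (adjusted p up to 0.210). Hoxa9 was at 43.5 and 36.1 CPM in NPMc_Flt3ITD, against 19.96 and 16.6 CPM in Flt3ITD, with 33.9 and 26.6 CPM in Mx (log2 fold change 1.08, SE 0.24, adjusted p = 0.0735). Hoxa7 was at 28.9 and 25.7 CPM in NPMc_Flt3ITD, against 13.4 and 13.3 CPM in Flt3ITD, with 13.9 and 12.5 CPM in Mx (log2 fold change 0.98, adjusted p = 0.099). Hoxa9 and Hoxa7 were not called although their groups lay apart. Hoxa3 was at 10.1 and 8.41 CPM in NPMc_Flt3ITD, against 4.33 and 2.95 CPM in Flt3ITD, with 9.34 and 7.26 CPM in Mx (log2 fold change 1.15, adjusted p = 0.13), and Hoxa5 at 6.66 and 12.5 CPM in NPMc_Flt3ITD, against 4.6 and 5.29 CPM in Flt3ITD, with 6.9 and 14.9 CPM in Mx (adjusted p = 0.383). In Hoxa7 the Mx libraries lay at the Flt3ITD level, whereas in Hoxa10, Hoxa9 and Hoxa3 both lay above both Flt3ITD libraries.

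Nkx2-3, a homeobox gene also known from NPM1-mutant leukaemia, was at 43.7 and 31.7 CPM in NPMc_Flt3ITD, against 9.26 and 11.1 CPM in Flt3ITD, with 44.8 and 28.8 CPM in Mx (log2 fold change 1.78, SE 0.30, adjusted p = 0.0303). Meis1, the partner of HOXA9, was at 466 and 263 CPM in NPMc_Flt3ITD, against 239.9 and 219 CPM in Flt3ITD, with 477 and 379 CPM in Mx and was not called (log2 fold change 0.61, adjusted p = 0.251). None of 5 tested Hoxb genes was called, and their median log2 fold change was -0.45. Hoxb4, which expands stem cells when overproduced, was at 5.69 and 3.81 CPM in NPMc_Flt3ITD, against 2.43 and 6.53 CPM in Flt3ITD, with 4.95 and 5.14 CPM in Mx.

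**Figure D3:**
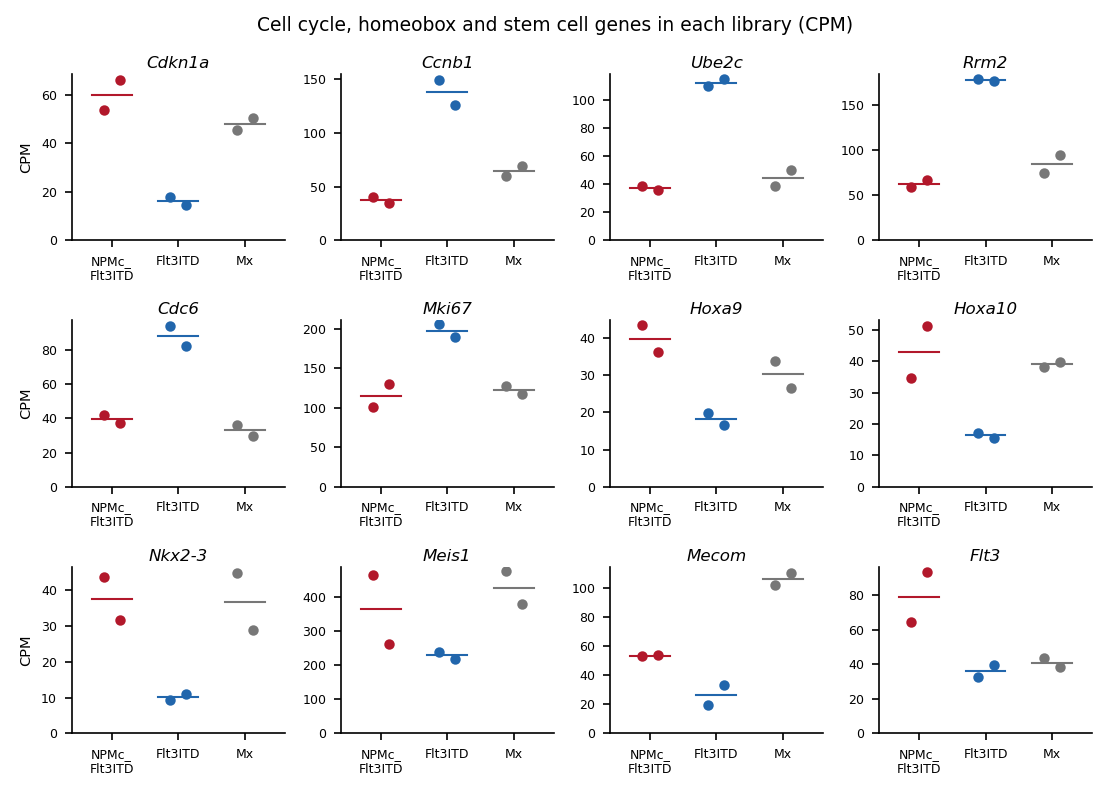
Normalised CPM (vertical axes, each from 0 and each with its own scale) of 12 cell cycle, homeobox and stem cell genes in the 2 libraries of NPMc_Flt3ITD (red), Flt3ITD (blue) and Mx (grey), with a horizontal line at each mean. In Cdkn1a, Hoxa10 and Nkx2-3 the Flt3ITD points are the 2 lowest, and in Ccnb1, Ube2c, Rrm2 and Cdc6 they are the 2 highest of the 6.

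The 12 largest rises brought together genes of different tissues. Tcf7, which encodes the T-lineage transcription factor TCF1, was at 21.8 and 18 CPM in NPMc_Flt3ITD, against 0.131 and 0.697 CPM in Flt3ITD, with 3.97 and 13 CPM in Mx (log2 fold change 3.91, SE 0.51, adjusted p = 0.0102). Tcf7 reached the filter through NPMc_Flt3ITD alone and so had to lie higher there. Hnf4a, a nuclear receptor best known from liver, was at 59.5 and 71.8 CPM in NPMc_Flt3ITD, against 3.55 and 8.02 CPM in Flt3ITD, with 8.4 and 8.15 CPM in Mx (log2 fold change 3.37, SE 0.36, adjusted p = 0.00537). Pdgfrb, a platelet-derived growth factor receptor of the same kinase class as FLT3, was at 65.7 and 59.3 CPM in NPMc_Flt3ITD, against 10.5 and 9.63 CPM in Flt3ITD, with 7.95 and 8.39 CPM in Mx (log2 fold change 2.52, SE 0.26, adjusted p = 0.00427). For Hnf4a and Pdgfrb the Flt3ITD and Mx libraries were at a like low level and both NPMc_Flt3ITD libraries lay above all 4. Akr1c12, an aldo-keto reductase gene, was at 26.9 and 55 CPM in NPMc_Flt3ITD, against 4.6 and 4.31 CPM in Flt3ITD, with 2.25 and 2.83 CPM in Mx (log2 fold change 2.86, SE 0.40, adjusted p = 0.0133). Its near copy Akr1c13 rose by 1.33, and the 2 may share reads. Clec2i, a C-type lectin gene, was at 18.4 and 23.1 CPM in NPMc_Flt3ITD, against 3.55 and 2.57 CPM in Flt3ITD, with 0.75 and 2.5 CPM in Mx (log2 fold change 2.42, SE 0.43, adjusted p = 0.0379). P2ry10, a lysophospholipid receptor gene of lymphocytes, was at 22.7 and 20.3 CPM in NPMc_Flt3ITD, against 6.83 and 3.14 CPM in Flt3ITD, with 8.74 and 6.78 CPM in Mx (log2 fold change 1.98, adjusted p = 0.0486).

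Several of these rises are genes of T cells. Thy1, a surface marker of T cells that is also found on mouse stem cells of some strains, was at 33.1 and 45.9 CPM in NPMc_Flt3ITD, against 7.22 and 9.28 CPM in Flt3ITD, with 8.32 and 9.85 CPM in Mx (log2 fold change 2.12, SE 0.30, adjusted p = 0.0161). Lck, a kinase of T cell receptor signalling, was at 39.1 and 49.8 CPM in NPMc_Flt3ITD, against 11.3 and 11 CPM in Flt3ITD, with 13 and 21 CPM in Mx (log2 fold change 1.89, adjusted p = 0.0245). For both genes the NPMc_Flt3ITD libraries were the 2 highest of the 6. Tox, a transcription factor of T cell development, was at 23.4 and 37.8 CPM in NPMc_Flt3ITD, against 5.45 and 8.52 CPM in Flt3ITD, with 23 and 21.4 CPM in Mx (log2 fold change 1.97, adjusted p = 0.0309). Cd69, an early activation antigen, was at 336 and 148 CPM in NPMc_Flt3ITD, against 72.2 and 34.9 CPM in Flt3ITD, with 86.8 and 73 CPM in Mx (log2 fold change 2.13, adjusted p = 0.0486). Of 18 tested T and NK cell genes (30 in the list) 2 rose, Tcf7 and Lck, and 0 fell, against 0.377% higher over all tested genes. Their median log2 fold change was 1.24, 16 of the 18 were above 0, and in 12 both NPMc_Flt3ITD libraries lay above both Flt3ITD libraries, against 24.6% of all tested genes. Of these 18 genes 4 reached the filter through NPMc_Flt3ITD alone and so had to lie higher there. Il2rb, an interleukin 2 receptor gene, was at 2.99 and 6.85 CPM in NPMc_Flt3ITD, against 0 and 1.2 CPM in Flt3ITD, with 2.59 and 14 CPM in Mx, and Cd28, a costimulatory receptor gene, at 6.7 and 4.36 CPM in NPMc_Flt3ITD, against 0.0657 and 1.3 CPM in Flt3ITD, with 11.2 and 6.93 CPM in Mx. Neither was called. Other genes of T cells were at low levels. Cd3e, of the T cell receptor complex, was at 0 and 1.21 CPM in NPMc_Flt3ITD, against 0.46 and 0.0634 CPM in Flt3ITD, with 0 and 0.518 CPM in Mx. Cd3g, of the same complex, was at 0.112 and 0.953 CPM in NPMc_Flt3ITD, against 0 and 0.444 CPM in Flt3ITD, with 0.487 and 1.55 CPM in Mx. The coreceptor gene Cd8a was at 1.12 and 0.896 CPM in NPMc_Flt3ITD, against 0.657 and 0.824 CPM in Flt3ITD, with 1.16 and 1.04 CPM in Mx. These 3 did not reach the filter. The summed level of the list was 309 and 309 CPM in NPMc_Flt3ITD, against 136 and 135 CPM in Flt3ITD, with 166 and 219.8 CPM in Mx. Gzmb, which encodes granzyme B, was at 54.3 and 29 CPM in NPMc_Flt3ITD, against 6.24 and 7.51 CPM in Flt3ITD, with 0.3 and 1.88 CPM in Mx and just missed the threshold (log2 fold change 2.38, SE 0.47, adjusted p = 0.0522).

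Rises among genes of mast cells were those of Cpa3 and Cyp11a1. Cpa3, the mast cell carboxypeptidase, was at 205 and 152 CPM in NPMc_Flt3ITD, against 52.1 and 42.4 CPM in Flt3ITD, with 15.5 and 15.5 CPM in Mx (log2 fold change 1.89, SE 0.22, adjusted p = 0.00652). Cyp11a1, a steroid-making enzyme also found in mast cells, was at 14.8 and 15.2 CPM in NPMc_Flt3ITD, against 2.63 and 1.05 CPM in Flt3ITD, with 0.975 and 0.565 CPM in Mx (log2 fold change 2.55, SE 0.42, adjusted p = 0.0266). Of 13 tested mast cell and basophil genes 2 rose and 0 fell, against 0.377% higher over all tested genes, and 10 of the 13 had a fold change above 0. Fcer1a, the defining IgE receptor gene of mast cells and basophils, had no read in either NPMc_Flt3ITD library, against 0.919 and 0.475 CPM in Flt3ITD, with 1.46 and 1.74 CPM in Mx. A count of 0 allows up to 3 reads, which equal 0.112 and 0.0867 CPM in the NPMc_Flt3ITD libraries. Il1rl1, the interleukin 33 receptor gene, was at 6.96 and 5.03 CPM in NPMc_Flt3ITD, against 32.6 and 17.1 CPM in Flt3ITD, with 5.74 and 2.73 CPM in Mx, the opposite direction (log2 fold change -1.83, adjusted p = 0.0767).

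**Figure D4:**
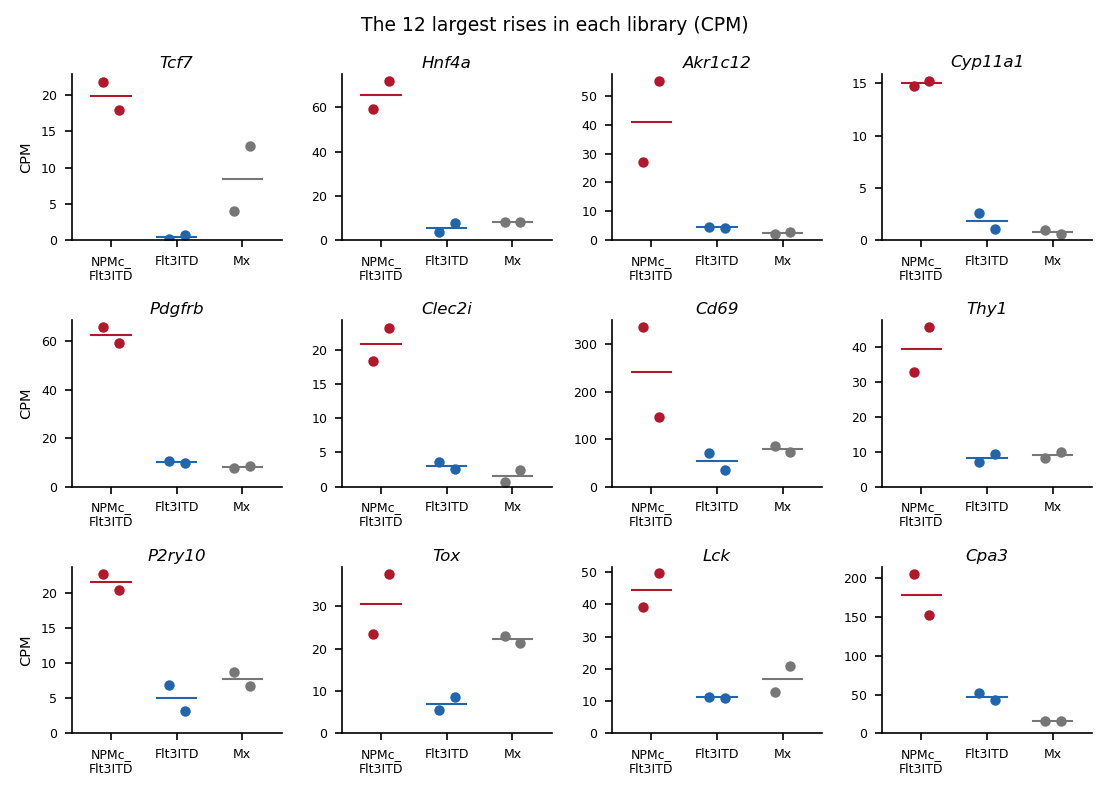
Normalised CPM (vertical axes, each from 0 and each with its own scale) of the 12 genes with the largest called rises in the 2 libraries of NPMc_Flt3ITD (red), Flt3ITD (blue) and Mx (grey), with a horizontal line at each mean. In every panel both NPMc_Flt3ITD points lie above both Flt3ITD points. In Tox the Mx points, at 23.0 and 21.4 CPM, lie close to the lower NPMc_Flt3ITD point.

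The survival, p53, inflammatory and STAT5 lists held 1 to 3 rises each, against 0.377% higher over all tested genes. Of 13 tested BCL2 family genes 1 rose, Bcl2, which blocks apoptosis, at 79.1 and 76.1 CPM in NPMc_Flt3ITD, against 37.7 and 35.7 CPM in Flt3ITD, with 63.7 and 61.6 CPM in Mx (log2 fold change 1.06, SE 0.17, adjusted p = 0.0278). Of 27 p53 target genes 2 rose and 0 fell, Cdkn1a and Trp53inp1, the second at 80.2 and 85.8 CPM in NPMc_Flt3ITD, against 38.5 and 36.4 CPM in Flt3ITD, with 59.2 and 56.6 CPM in Mx (log2 fold change 1.13, SE 0.18, adjusted p = 0.0234). Perp, another p53 target, was at 9.31 and 12.2 CPM in NPMc_Flt3ITD, against 0.788 and 2.95 CPM in Flt3ITD, with 2.66 and 7.59 CPM in Mx (adjusted p = 0.0854), and Mdm2, the inhibitor of p53, missed the threshold (log2 fold change 0.44, adjusted p = 0.348). Of 24 NF-kB and inflammatory genes 3 rose and 0 fell, the chemokine gene Ccl4, the cyclooxygenase gene Ptgs2 and the NF-kB cofactor gene Nfkbiz. Ccl4 was at 57 and 58.7 CPM in NPMc_Flt3ITD, against 14.1 and 25 CPM in Flt3ITD, with 40.2 and 46.7 CPM in Mx (adjusted p = 0.0377). Ptgs2 was at 10.9 and 17 CPM in NPMc_Flt3ITD, against 3.48 and 3.74 CPM in Flt3ITD, with 24.2 and 28.2 CPM in Mx (adjusted p = 0.0486). Nfkbiz was at 106 and 69.3 CPM in NPMc_Flt3ITD, against 31.8 and 35.1 CPM in Flt3ITD, with 199 and 131 CPM in Mx (adjusted p = 0.0493). For Ptgs2 and Nfkbiz the Mx libraries were the 2 highest of the 6, and none of the 3 was called without Mx replicate 1 or without Mx replicate 2. Of 23 genes of STAT5 and its targets 1 rose, Osm, which encodes the cytokine oncostatin M, at 129 and 122 CPM in NPMc_Flt3ITD, against 51.1 and 26.4 CPM in Flt3ITD, with 11.9 and 16 CPM in Mx (log2 fold change 1.74, SE 0.31, adjusted p = 0.0379). Socs2, which STAT5 induces, was at 229 and 359 CPM in NPMc_Flt3ITD, against 129 and 151 CPM in Flt3ITD, with 60.8 and 54.7 CPM in Mx (log2 fold change 1.03, SE 0.23, adjusted p = 0.0681).

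The calls among interferon response genes were falls. Of 44 tested genes 3 fell and 0 rose, against 1.12% lower over all tested genes, with a median log2 fold change of -0.08. Gbp2, a guanylate-binding protein gene, was at 63.8 and 64.3 CPM in NPMc_Flt3ITD, against 249 and 167 CPM in Flt3ITD, with 131 and 109 CPM in Mx (log2 fold change -1.66, SE 0.22, adjusted p = 0.00983). Gbp4 was at 2.84 and 1.79 CPM in NPMc_Flt3ITD, against 15.4 and 10.5 CPM in Flt3ITD, with 34.4 and 19.2 CPM in Mx (log2 fold change -2.07) and Isg20, an exonuclease gene, at 26.8 and 29.3 CPM in NPMc_Flt3ITD, against 73.2 and 57.3 CPM in Flt3ITD, with 31.7 and 30.1 CPM in Mx (log2 fold change -1.18). The Gbp genes resemble each other and may share reads. Ifngr1, the interferon gamma receptor gene, was at 119 and 103 CPM in NPMc_Flt3ITD, against 297 and 224 CPM in Flt3ITD, with 136 and 146 CPM in Mx (log2 fold change -1.21, SE 0.19, adjusted p = 0.0226). Ifngr1 was the 1 called gene among 33 cytokine receptor genes, against 1.12% lower over all tested genes. Ifit1, Isg15 and Irf7, targets of type I interferon, had fold changes of 0.21, 0.07 and -0.04 and did not pass. The count of interferon genes that fell was 0 without NPMc_Flt3ITD replicate 1, NPMc_Flt3ITD replicate 2 or Flt3ITD replicate 1, 4 without Flt3ITD replicate 2, and 1 without Mx replicate 1 or without Mx replicate 2, and without Flt3ITD replicate 1 the median was 0.02. H2-Eb1, an MHC class II gene, was high in Flt3ITD replicate 1 alone, at 39.9 and 60.3 CPM in NPMc_Flt3ITD, against 247 and 49.7 CPM in Flt3ITD, with 74.5 and 70.4 CPM in Mx.

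Nucleophosmin works in the nucleolus, where ribosomes are assembled, and leaves the nucleus through the exportin XPO1. Of 17 tested genes of nucleophosmin, its relatives and its nucleolar and export partners 0 were called, with a median log2 fold change of -0.57, and in 13 of them both NPMc_Flt3ITD libraries lay below both Flt3ITD libraries, against 24.1% of all tested genes. Xpo1 was at 95.2 and 97 CPM in NPMc_Flt3ITD, against 179.8 and 149 CPM in Flt3ITD, with 109 and 135 CPM in Mx (log2 fold change -0.76, SE 0.18, adjusted p = 0.0765). Nolc1, a nucleolar chaperone gene, was at 96 and 127 CPM in NPMc_Flt3ITD, against 193 and 219.8 CPM in Flt3ITD, with 116 and 117 CPM in Mx (log2 fold change -0.89, SE 0.18, adjusted p = 0.0604). Of 43 tested ribosome biogenesis genes 0 were called, 42 had a fold change below 0 with a median of -0.57, and in 36 both NPMc_Flt3ITD libraries lay below both Flt3ITD libraries, against 24.1% of all tested genes. Their summed level was 5327 and 6335 CPM in NPMc_Flt3ITD, against 8012 and 9251 CPM in Flt3ITD, with 5455 and 6044 CPM in Mx. None of 50 cytosolic ribosomal protein genes was called, and their median was 0.23.

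Of 50 tested oxidative phosphorylation genes 1 fell, against 1.12% of all tested genes. It was Cyc1, which encodes cytochrome c1 of complex III, at 102 and 103 CPM in NPMc_Flt3ITD, against 182 and 194 CPM in Flt3ITD, with 119 and 111 CPM in Mx (log2 fold change -0.86, SE 0.15, adjusted p = 0.0396). In 49 of the 50 the fold change was below 0, the median was -0.40, and in 26 the libraries of NPMc_Flt3ITD both lay below those of Flt3ITD, against 24.1% of all tested genes. Of 29 glycolysis and hypoxia genes 1 rose, the aldolase gene Aldoc, against 0.377% higher over all tested genes. Aldoc was at 55.8 and 56.3 CPM in NPMc_Flt3ITD, against 15.3 and 16.2 CPM in Flt3ITD, with 22.6 and 26.6 CPM in Mx (log2 fold change 1.77, SE 0.22, adjusted p = 0.00861). None was called among the tested genes of granulocyte-monocyte progenitors (31), multipotent progenitors (25), lineage transcription factors (36), DNA methylation and Polycomb regulators (32), adhesion and niche receptors (30), cholesterol synthesis (26), the unfolded protein response (22) or ERK feedback (16). Their medians lay between 0.03 and 0.54. Of 27 megakaryocyte and platelet genes 1 rose, Plek, which encodes pleckstrin, against 0.377% higher over all tested genes. Plek was at 412 and 246 CPM in NPMc_Flt3ITD, against 105 and 109 CPM in Flt3ITD, with 121 and 93.8 CPM in Mx (log2 fold change 1.56, SE 0.25, adjusted p = 0.0252). Of 28 lymphoid priming genes 2 rose, Tcf7 and Lck, against the same 0.377%. Both are also the calls of the T and NK cell list. Of the 28 genes 3, with Tcf7 among them, reached the filter through NPMc_Flt3ITD alone and so had to lie higher there.

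**Figure D5:**
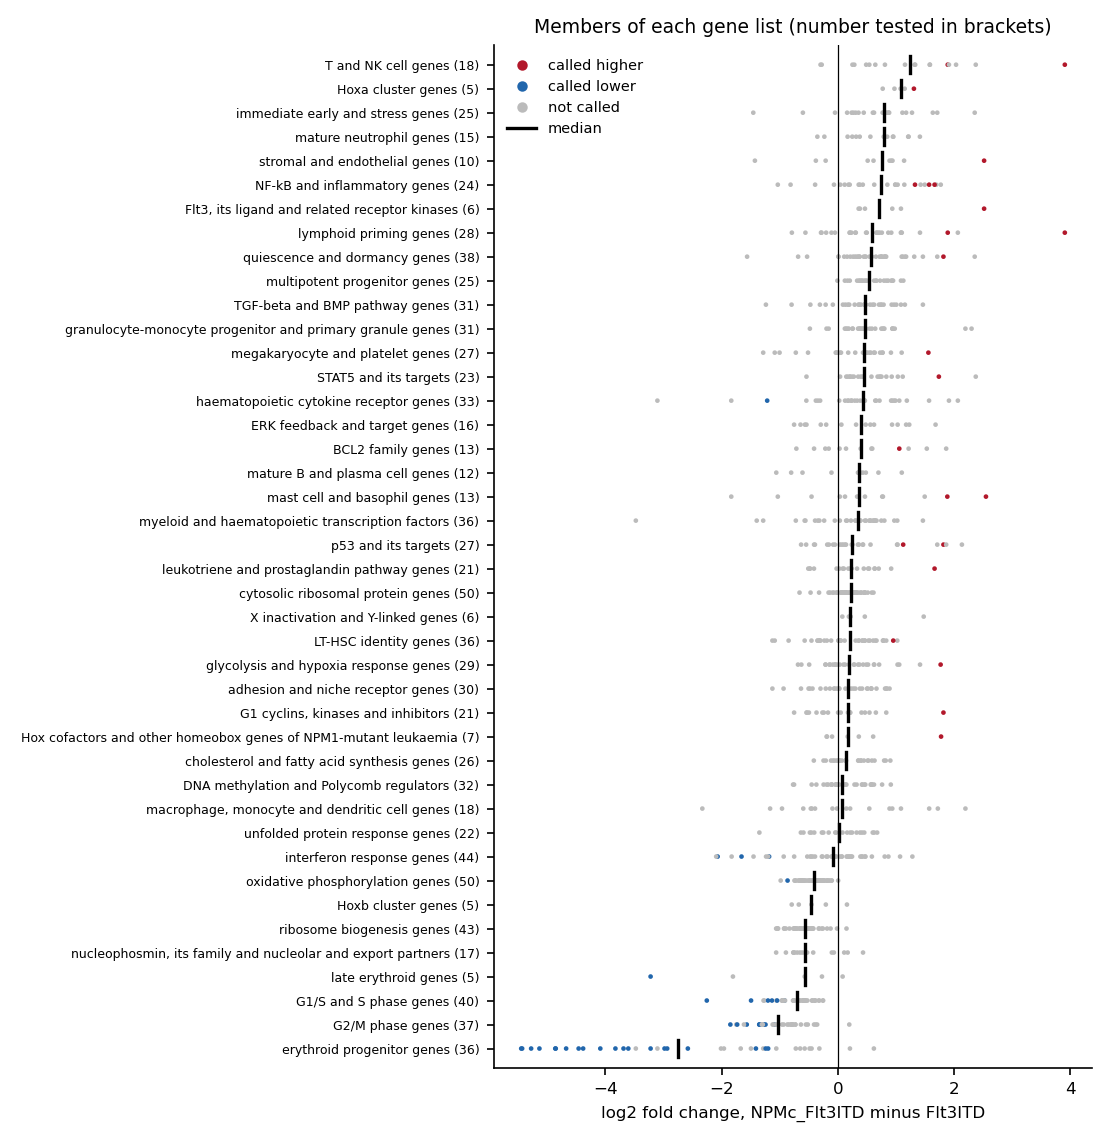
Each point is a tested member of a gene list, placed by its log2 fold change, NPMc_Flt3ITD minus Flt3ITD, on the horizontal axis, with the lists in order of their median (black bar) and the number of tested members in brackets. Lists overlap in members. The erythroid progenitor list is lowest, with a median of -2.76 and 20 members called lower (blue), followed by G2/M at -1.02 and G1/S and S phase at -0.69.

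Markers of other cells and of sex varied between replicates. The summed level of 16 mature neutrophil genes was 157 and 651 CPM in NPMc_Flt3ITD, against 59.0 and 769 CPM in Flt3ITD, with 277 and 141 CPM in Mx. The plasma cell gene Igj was at 8.34 and 242 CPM in NPMc_Flt3ITD, against 28.1 and 235 CPM in Flt3ITD, with 6.26 and 82.3 CPM in Mx. None of the neutrophil, macrophage and dendritic cell, or B and plasma cell genes was called. Pdgfrb and Thy1 are also genes of stromal cells, and 21 of the 23 genes of the stromal and endothelial list are in the table, with a summed level of 372 and 369 CPM in NPMc_Flt3ITD, against 290.1 and 298 CPM in Flt3ITD, with 411 and 355 CPM in Mx. Of its 10 tested genes 1 rose, Pdgfrb, and 0 fell, against 0.377% higher over all tested genes. Their median log2 fold change was 0.75, with 7 of the 10 above 0. Of these 10 genes 1 reached the filter through NPMc_Flt3ITD alone and so had to lie higher there. The median was 0.99 and 0.08 without NPMc_Flt3ITD replicate 1 and 2, and -0.001 and 1.09 without Flt3ITD replicate 1 and 2. Sparc, a matrix protein gene, was at 6.7 and 20.9 CPM in NPMc_Flt3ITD, against 3.61 and 6.5 CPM in Flt3ITD, with 0.45 and 1.7 CPM in Mx, and Cxcl12, the chemokine of the niche, at 4.86 and 7.63 CPM in NPMc_Flt3ITD, against 0.985 and 6.08 CPM in Flt3ITD, with 0.862 and 0.848 CPM in Mx. Neither was called, and both were detected in every library. Others of the list did not reach the filter. Pdgfra, a receptor of stromal cells, was at 0 and 0 CPM in NPMc_Flt3ITD, against 0 and 0.792 CPM in Flt3ITD, with 0 and 0 CPM in Mx. Col1a1, a collagen gene of stroma, was at 1.53 and 0 CPM in NPMc_Flt3ITD, against 0.263 and 0.887 CPM in Flt3ITD, with 0.075 and 0.0942 CPM in Mx. The endothelial gene Cdh5 was at 0 and 0.0289 CPM in NPMc_Flt3ITD, against 0 and 0.0634 CPM in Flt3ITD, with 0 and 0 CPM in Mx. Xist, which coats the silenced X, was at 259 and 625 CPM in NPMc_Flt3ITD, against 37.2 and 547 CPM in Flt3ITD, with 1007 and 1038 CPM in Mx, and the Y-linked gene Ddx3y at 61.1 and 46.9 CPM in NPMc_Flt3ITD, against 63.6 and 32.8 CPM in Flt3ITD, with 20.4 and 24.8 CPM in Mx. Neither passed (adjusted p = 0.456 and 0.753), and Xist was far lower in Flt3ITD replicate 1 than in replicate 2. The part of these differences between libraries in the results was not tested.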

How the data were processed

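The authors deposited a table of CPM values (counts scaled to library size) for 6 libraries, per the file headers, a signal unit in which 1 read has a fixed worth per library. Per the submitters' processing notes, reads came from CASAVA 1.8 and were mapped and counted with tools that include TopHat2 2.1.0 with Bowtie2 2.2.4, and HTSeq 0.6.1p1 and edgeR 3.20.7, on mouse build mm9; the strand setting is not given in the sources used here. All of the 107982 deposited CPM values, 100%, were whole reads within 0.01, and edgeR 4.0.16 on these recovered reads called 100 genes. Reads carried no molecular identifiers, so a limit from a count of 0 covers counting error only.

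Genes with at least 1 CPM in 2 of the 4 NPMc_Flt3ITD and Flt3ITD libraries were fitted as log2(CPM + 1) with limma 3.58.1 (R 4.3.3) and an intensity trend, with group as the only term over all 6 libraries. This left 3 residual degrees of freedom (8.66 in all with the prior). Tests are two-sided, and p-values were Benjamini-Hochberg adjusted over the 12194 genes. Genes were named by rule: the 12 largest called rises and falls whose groups did not overlap and whose higher group averaged 5 CPM or more, the 4 genes of smallest p in each of 42 lists, and a set list. The members and lists were chosen with earlier results of these data known. Summed levels cover all list members in the table. Promoters are from RefSeq (GRCm38.p6), a different build from that of the counts, and were matched by symbol. The code was run on simulated reads with large changes put into well-expressed genes. The simulation used the same spread for all genes and no shared replicate effect. It checks the code and gives no error rate for the calls made here. Alternatives were other pseudocounts, filters, scalings and tools, a replicate block, and leaving out each library.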

Additional observations from a re-analysis of the deposited data

How the results depend on the processing

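Every gene of the 182 kept its direction under every alternative that tested it. The 4 libraries of each did not overlap between the groups, so leaving out 1 library could not turn a direction. The kept direction is therefore no support for the calls. The number called was 182 (46 higher, 136 lower) and was within 1.5 times of this under another filter of 5 CPM, both other scalings, and 1 CPM in 2 of all 6 libraries; with pseudocounts of 0.25 and 5 it was 130 and 200, with 29 and 54 higher. Without a filter limma called 0 genes, 0 higher and 0 lower, with 2579 at an unadjusted p under 0.05. With only the 4 libraries 107 were called (24 higher, 83 lower), with edgeR on recovered reads 100 (23 and 77), with DESeq2 1.42.0 on recovered reads 1020 (411 and 609), and with no intensity trend 65 (11 and 54). Leaving out 1 library gave 17 to 105 called, 3 to 40 higher and 14 to 81 lower. The share higher was 25.3%, against 40.3% with DESeq2, 16.9% with no trend and 5.88% without NPMc_Flt3ITD replicate 1. The causes were not tested. Of the 50 called genes among the 180 that the naming rule gave, which are not all the called genes named here, 14 lost the call with edgeR and 28 with no trend.

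The labels do not say what the replicate numbers share. Deviations of same-numbered libraries from their group means correlated by 0.357 (NPMc_Flt3ITD and Flt3ITD), 0.331 (NPMc_Flt3ITD and Mx) and 0.262 (Flt3ITD and Mx), a hint from the values and not from the design. With replicate number as a block 1555 genes were called (638 higher, 917 lower), and 1700 (677 and 1023) with only the 4 libraries, and the share higher was 41.0% in the fit of 6. Over all tested genes 5.23% rose and 7.52% fell in that fit. Of the lists, 29 of 36 erythroid progenitor genes, 28 of 37 of G2 and mitosis and 26 of 40 of G1/S and S phase fell in it. So did 26 of 43 of ribosome biogenesis, 11 of 17 of nucleophosmin and its partners and 20 of 50 of oxidative phosphorylation. Of 38 dormancy genes 10 rose and 1 fell. Rises were not particular to that list, and lists share members. Of 18 T and NK cell genes 9 rose and 0 fell, and of 25 multipotent progenitor genes 8 rose and 0 fell. Of 25 immediate early and stress genes 11 rose and 1 fell, and of 24 NF-kB and inflammatory genes 9 rose and 1 fell.

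Flt3ITD replicate 1, the shallowest library, had the largest effect of any single library on the count of calls, and with 2 libraries a group a missed call does not show an equal level.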

Other observations

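Single metabolic genes outside the lists were also lower in NPMc_Flt3ITD than in Flt3ITD. They were chosen after their values were seen, and no list of their pathways was counted. Hprt, which salvages purines, was at 61 and 69.9 CPM in NPMc_Flt3ITD, against 234 and 262 CPM in Flt3ITD, with 200.1 and 202 CPM in Mx (log2 fold change -1.91, SE 0.16, adjusted p = 0.00187), and NPMc_Flt3ITD was apart from both other groups. Mthfd1, an enzyme of the folate cycle, was at 78.9 and 82.5 CPM in NPMc_Flt3ITD, against 304 and 309 CPM in Flt3ITD, with 125 and 94.2 CPM in Mx (log2 fold change -1.91, SE 0.18, adjusted p = 0.00324), and Flt3ITD was apart from both other groups. Cad, which starts pyrimidine synthesis, was at 54.3 and 47.9 CPM in NPMc_Flt3ITD, against 110 and 105 CPM in Flt3ITD, with 54.1 and 42.9 CPM in Mx (log2 fold change -1.06, adjusted p = 0.0396). In Mthfd1 and Cad the Mx libraries lay nearer to NPMc_Flt3ITD than to Flt3ITD. Pfas, of purine synthesis, fell by 0.82 on the log2 scale (adjusted p = 0.0486). Srm, which makes spermidine, was at 99.8 and 117 CPM in NPMc_Flt3ITD, against 285 and 221 CPM in Flt3ITD, with 68.4 and 90.7 CPM in Mx (log2 fold change -1.21, adjusted p = 0.0339). Gatm, of creatine synthesis, was at 41.4 and 51 CPM in NPMc_Flt3ITD, against 148 and 133 CPM in Flt3ITD, with 65.4 and 43.6 CPM in Mx (log2 fold change -1.59, adjusted p = 0.0161).

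The following genes were chosen in the same way. Hspd1, the mitochondrial chaperone HSP60, was at 293 and 355 CPM in NPMc_Flt3ITD, against 693 and 736 CPM in Flt3ITD, with 409 and 395 CPM in Mx (log2 fold change -1.14, adjusted p = 0.0226), a call lost in each of the 6 fits without 1 library. Phb2, a prohibitin of the inner membrane, was at 146 and 153 CPM in NPMc_Flt3ITD, against 325 and 302 CPM in Flt3ITD, with 149 and 156 CPM in Mx (log2 fold change -1.06, adjusted p = 0.0162). In both genes the groups NPMc_Flt3ITD and Flt3ITD did not overlap. Mrpl12, of the mitochondrial ribosome, was at 67.7 and 90.5 CPM in NPMc_Flt3ITD, against 155 and 179.9 CPM in Flt3ITD, with 74.7 and 78.5 CPM in Mx (log2 fold change -1.08, adjusted p = 0.0382). In 2 further genes Mx lay at or above the Flt3ITD level. Gdf3, a TGF-beta family ligand gene, was at 4.26 and 4.97 CPM in NPMc_Flt3ITD, against 32.4 and 40.2 CPM in Flt3ITD, with 37.2 and 43 CPM in Mx (log2 fold change -2.73, SE 0.26, adjusted p = 0.00324). Grb10, an adaptor that dampens growth factor receptors, was at 6.81 and 9.97 CPM in NPMc_Flt3ITD, against 31.4 and 43.7 CPM in Flt3ITD, with 111 and 94.6 CPM in Mx (log2 fold change -2.04, SE 0.27, adjusted p = 0.00983).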
